A study of Mus musculus with 6 samples.

Results

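The genes described here are 10 imprinted genes linked to growth control and quiescence of stem cells: Rian, Meg3 and Dlk1 of the Dlk1-Meg3 locus, H19 and Igf2 of the H19-Igf2 locus, and Cdkn1c, Grb10, Peg3, Plagl1 and Ndn. They were chosen by name with earlier results of these data known, and every probe set annotated to 1 of them alone was taken. Of the 10 genes, 9 had such a probe set, 39 probe sets in all out of 34945 single-gene probe sets for 18193 genes. H19 had 0, because its 1 probe set names a second gene as well, so no value is given for it. Long-term haematopoietic stem cells (LT-HSC) were sorted from mouse bone marrow as cells without lineage markers and CD48 and with Sca-1, c-kit and CD150, and their RNA was amplified and hybridised to Affymetrix mouse genome arrays, on which a probe set is a group of short probes for 1 transcript. There were 3 arrays of wildtype (Irf8+/+) cells and 3 of knockout (Irf8-/-) cells, all labelled as biological replicates at 3 weeks and as untreated. The labels do not say whether the 3 weeks are the age of the mice, and they give no strain, no further allele and no number of animals per sample, so the p-values measure the spread between these samples only.

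An imprinted gene is read from the copy inherited from 1 parent, and many imprinted genes act on fetal and stem cell growth. On the maternal chromosome the Dlk1-Meg3 locus makes long noncoding RNAs, Meg3 and Rian, which carry microRNAs and small nucleolar RNAs, and on the paternal one it makes the transmembrane protein DLK1. The H19-Igf2 locus makes the growth factor IGF2 from the paternal copy and the noncoding RNA H19 from the maternal one. In adult bone marrow the Dlk1-Meg3 and H19-Igf2 loci and the cell cycle inhibitor p57, made from Cdkn1c, are known for holding stem cells in quiescence.

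The deposited values are log2 expression values, so a difference of 1 is a factor of 2, and array medians ran from 4.85 to 4.96. Irf8, the interferon regulatory factor whose loss defines the knockout, did not read lower in the arrays labelled knockout: its brighter probe set was 5.52 ± 0.79 in wildtype and 5.93 ± 0.89 in knockout (SD, n = 3 each), and the other was 4.41 ± 0.58 and 4.64 ± 0.83. Neither the labels nor the files say where those probes lie relative to the deleted part, so they do not check the labels. Kit and Slamf1 (CD150) of the sort were above the array median on 6 and 5 of the 6 arrays. Slamf1 was below it in knockout replicate 3, at 4.71 against a median of 4.95, and read 5.97 to 9.11 elsewhere. Sca-1 (Ly6a) had no single-gene probe set. Cd48, a marker the sort excluded, read 7.60 and 9.42 in knockout replicates 1 and 2 and between 3.12 and 4.54 on the other 4 arrays. Knockout replicate 3 stood apart, with a mean correlation of 0.835 with the other arrays across probe sets against 0.859 to 0.880 for the rest.

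Rian, Grb10 and Ndn each had a probe set that read lower on all 3 knockout arrays than on any wildtype array and had an unadjusted p under 0.05, with differences of -4.39, -2.14 and -2.46 on the log2 scale. The brightest probe set of Plagl1 read higher on all 3 knockout arrays, by 0.74. No member passed the test. In limma, with p-values adjusted over all 45037 probe sets, 0 of the 39 member probe sets had an adjusted p under 0.05, against a background of 0% of all probe sets. The adjusted p of the members lay between 0.892 and 0.996. At an unadjusted p under 0.05 there were 3 member probe sets (7.69%), 1 each of Rian, Grb10 and Ndn, against 4.7% of all probe sets. All 3 knockout arrays lay below all 3 wildtype arrays in 9 of the 39 (23.1%), against 4.23% of all probe sets, and above them in 1, against 6.66%. The 9 were 4 probe sets of Ndn, 2 of Grb10 and 1 each of Rian, Meg3 and Peg3. Probe sets annotated to 1 gene cannot be counted as independent of each other. The members were chosen with earlier results of these data known, so the shares beside all probe sets are a description only. Of the 9, Peg3 1447732_x_at and Meg3 1436057_at were apart by only 0.01 and 0.03. Without knockout replicate 3 the number lower without overlap was 10 (25.6%), against 9.79% of all probe sets. It was 14 without wildtype replicate 1, against 8.11% of all probe sets, and 15 without knockout replicate 1, against 8.81%.

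Over the 39 probe sets the median difference, knockout minus wildtype, was -0.37 on the log2 scale, with 26 below 0 and 13 above, and over all probe sets it was 0.06. With each gene taken by the probe set with the highest mean over all arrays, the median over the 9 genes was -0.73, with 5 below 0 and 4 above, and 0.07 over all 18193 genes. The smallest adjusted p of a member over genes was 0.740 in limma. At an unadjusted p under 0.05 in that fit there were 2 of the 9, against 4.84% of all genes, again as a description only. Of the 39 probe sets, 19 were above the array median on at least 3 of the 6 arrays and 20 were dimmer. In the 1 of the 19 that belongs to Rian, only the wildtype arrays were that bright.

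**Figure D1:**
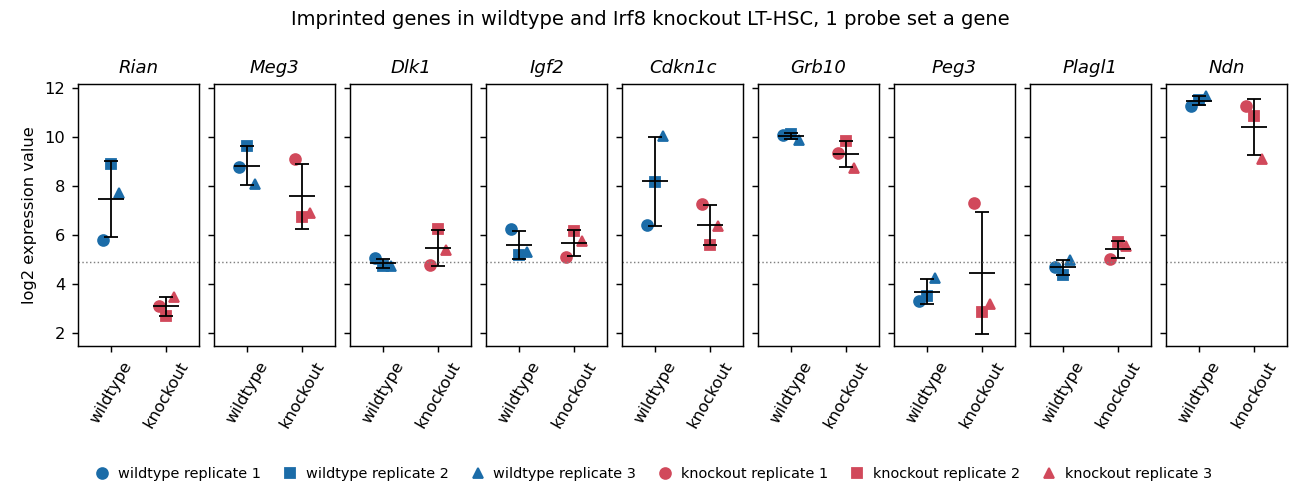
Log2 expression value (vertical axis) of the probe set with the highest mean of each of the 9 measured imprinted genes on the 3 wildtype (blue) and 3 knockout (red) arrays; black lines are the mean and SD of each group, and the dotted line is the mean of the array medians. Rian and Grb10 have 3 knockout arrays below every wildtype array, Plagl1 has them above, and the groups overlap in the other 6 genes.

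Rian is a long noncoding RNA made downstream of Meg3 on the maternal chromosome and processed into microRNAs and small nucleolar RNAs. Of its 4 probe sets, 1452899_at read 5.80, 8.90 and 7.72 in wildtype replicates 1 to 3 and 3.08, 2.70 and 3.48 in knockout replicates 1 to 3. All 3 wildtype arrays were above the array median, all 3 knockout arrays were below it, and the lowest wildtype array lay 2.33 above the highest knockout array. The means were 7.47 ± 1.56 and 3.09 ± 0.39 (SD, n = 3 each), a difference of -4.39 (SE 0.79). The knockout values lie at the low end of the scale, where dim probe sets read, so no fold on the linear scale is given. In limma the unadjusted p was 0.00115, the 58th smallest of 45037, and the adjusted p 0.892. The difference lay between -5.22 and -3.67 in every setting tried, and its adjusted p between 0.574 and 0.945.

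The other 3 probe sets of Rian did not show this separation. Probe set 1427580_a_at read 8.51 in wildtype replicate 1, 3.09 and 3.06 in the other wildtype arrays, and 2.26, 4.56 and 2.67 in knockout. Its difference of -1.73 (SE 1.54) rests on wildtype replicate 1, without which it was 0.08. That array was the lowest wildtype array in 1452899_at, so the pair did not order the wildtype arrays alike. Probe sets 1440001_at and 1428055_at read between 2.39 and 2.91 on all 6 arrays, under the array median, with differences of 0.12 (SE 0.17) and 0.14 (SE 0.11). The files do not place the probe sets along the transcript. In bulk samples fewer cells of a type and less RNA per cell cannot be told apart.

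The mature microRNAs whose hairpins lie inside Rian are shown because its brightest probe set had no overlap between the groups, though it did not pass the test. These arrays did not measure them. RefSeq places 6 of them inside Rian, between bases 109611521 and 109618326 of the plus strand of chromosome 12 in GRCm38.p6. Capitals mark the seed, bases 2 to 8, which pairs with target messages.
mmu-miR-341-5p: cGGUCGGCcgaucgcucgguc
mmu-miR-341-3p: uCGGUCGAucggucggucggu
mmu-miR-1188-5p: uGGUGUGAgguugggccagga
mmu-miR-1188-3p: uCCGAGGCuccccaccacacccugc
mmu-miR-370-5p: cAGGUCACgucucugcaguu
mmu-miR-370-3p: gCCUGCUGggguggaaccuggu
The 6 seeds all differ, and so do the 13 seeds of the 13 mature microRNAs inside Rian, Meg3, H19 and Igf2 together.

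Meg3, the maternally expressed noncoding RNA next to Rian, had 11 probe sets. The brightest, 1439380_x_at, read 8.77, 9.65 and 8.09 in wildtype and 9.12, 6.74 and 6.90 in knockout. Probe set 1452905_at read 7.51, 8.98 and 9.66 in wildtype and 8.35, 5.61 and 5.89 in knockout. In both, knockout replicates 2 and 3 were below all wildtype arrays, and knockout replicate 1 lay within the wildtype range. The differences were -1.25 (SE 0.81) and -2.10 (SE 0.95), with an adjusted p of 0.906 each. For 1439380_x_at it was -2.02 without knockout replicate 1 and -0.83 without knockout replicate 2.

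In 1436057_at the groups did not overlap, at 6.32 to 6.63 in wildtype and 6.15 to 6.29 in knockout, but the gap was only 0.03 and the difference -0.31 (SE 0.41). The groups overlapped in the other 8, with differences between -0.79 and 0.32, and 5 of those were above the array median on 2 or fewer arrays. Counting all 11, 7 differences were below 0 and 4 above, with a median of -0.31; of the 4, that of 1452906_at turned to -0.007 and that of 1428765_at to -0.044 under quantile normalization. Rian and Meg3 thus did not share 1 array pattern: knockout replicate 1 was low in the brightest Rian probe set and high in the brightest pair of Meg3.

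Dlk1, the paternally expressed gene of the locus, codes for a transmembrane protein related to Notch ligands. Its probe set 1449939_s_at read 8.19 in wildtype replicate 2, 4.75 and 3.76 in the other wildtype arrays and 3.29 to 3.99 in knockout. Only wildtype replicate 2 was above the array median, and the difference of -1.85 (SE 1.10) was -0.54 without it. The other probe set, 1442724_at, read 4.73 to 5.07 in wildtype and 4.77, 6.24 and 5.41 in knockout, a difference of 0.63 (SE 0.45) in the opposite direction that was 0.24 without knockout replicate 2 and 0.97 without knockout replicate 1. The groups overlapped in both.

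Igf2, the paternally expressed growth factor of its locus, showed no shift beyond its spread. Probe set 1448152_at read 6.27, 5.20 and 5.32 in wildtype and 5.10, 6.16 and 5.74 in knockout, with groups that overlapped over nearly their whole range. The difference was 0.07 (SE 0.49, adjusted p = 0.987 in limma), and it was -0.13 without wildtype replicate 2, -0.07 without wildtype replicate 3 and -0.18 without knockout replicate 2. Probe set 1415931_at was below the array median on all 6 arrays, at 3.02 to 4.73 in wildtype and 2.74 to 3.60 in knockout, a difference of -0.76 (SE 0.46) that was -0.36 without wildtype replicate 1 and -1.22 without wildtype replicate 3.

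Cdkn1c codes for p57, an inhibitor of cyclin-dependent kinases that is expressed from the maternal copy. Its single probe set, 1417649_at, read 6.39, 8.16 and 10.04 in wildtype and 7.26, 5.60 and 6.37 in knockout. The wildtype arrays themselves spread over 3.65, more than the difference between the group means of -1.79 (SE 1.01, adjusted p = 0.906). Without wildtype replicate 3 the difference was -0.87, and without wildtype replicate 1 it was -2.69. Other kinase inhibitors gave no shared direction: of 6 measured, 3 differences were below 0 and 3 above. Of the 6, 0 passed, as did 0 of all 18193 genes. At an unadjusted p under 0.05 in limma there were 0, against 4.84% of all genes. Cdkn1a (p21) differed by 0.23 (SE 0.53, -0.15 with the mean of its probe sets, -0.22 without knockout replicate 1). Cdkn1b (p27) differed by -0.53 (SE 0.45, -0.22 without knockout replicate 3, -0.84 without knockout replicate 1, -0.90 with the mean of its probe sets). Cdkn2c differed by 0.24 (SE 0.47; 0.05 to 0.46 with 1 array left out) and Cdkn2d by -1.28 (SE 1.08; -0.04 without wildtype replicate 1, -2.10 without wildtype replicate 3).

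Grb10, an adaptor that binds the insulin and IGF receptors and dampens their signal, read lower in knockout in all 3 of its probe sets. In 1425457_a_at the wildtype arrays read 8.42, 8.77 and 10.56 and the knockout arrays 7.36, 6.86 and 7.12, with a gap of 1.06 between the groups. The difference was -2.14 (SE 0.67), a factor of 4.40, and limma gave it an unadjusted p of 0.0171 and, over all probe sets, an adjusted p of 0.906. In the brightest, 1425458_a_at, the values were 10.11, 10.12 and 9.90 in wildtype and 9.35, 9.83 and 8.76 in knockout, which did not overlap by a margin of 0.07. That difference was -0.73 (SE 0.38), and -0.45 without knockout replicate 3. In 1430164_a_at wildtype read 8.80, 8.55 and 6.45 and knockout 6.26, 6.90 and 6.05, so wildtype replicate 3 lay within the knockout range and the difference was -1.53 (SE 0.76). The array that was highest in 1425457_a_at, wildtype replicate 3, was thus the lowest wildtype array in both other probe sets.

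Ndn codes for necdin, a growth suppressor of the MAGE family expressed from the paternal copy and known for restraining stem cell division. Its 8 probe sets fell into 5 that were above the array median on 5 or 6 arrays and 3 that were below it on all 6. In the brightest, 1437853_x_at, wildtype read 11.29, 11.52 and 11.67 and knockout 11.29, 10.85 and 9.12. In 1455792_x_at wildtype read 10.72, 10.60 and 11.33 and knockout 10.20, 11.02 and 8.88. The groups overlapped in both, because 1 knockout array reached the wildtype range in each.

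In the other 3 bright probe sets of Ndn every knockout array lay below every wildtype array. In 1435383_x_at wildtype read 10.45, 10.19 and 10.51 and knockout 9.76, 9.84 and 8.48, with a gap of 0.35. In 1435382_at wildtype read 10.18, 9.89 and 10.05 and knockout 9.43, 9.47 and 8.04, with a gap of 0.42. In 1415923_at wildtype read 6.39, 7.26 and 9.38 and knockout 5.60, 5.72 and 4.33, with a gap of 0.67. Knockout replicate 3 was the lowest array in all 5.

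The differences of the 5, in the order given, were -1.07 (SE 0.56), -0.85 (SE 0.56), -1.02 (SE 0.45), -1.06 (SE 0.48) and -2.46 (SE 0.88). The last had an unadjusted p of 0.0291, and the adjusted p was 0.906 for each. Without knockout replicate 3 they were -0.42, -0.27, -0.58, -0.59 and -2.02, so 4 of the 5 moved by more than 1.5 times and all 5 kept their sign. The last was -1.61 without wildtype replicate 3, and that of 1455792_x_at was -1.34 without knockout replicate 2. Of the 3 dim probe sets, 1438939_x_at and 1438978_x_at differed by -0.10 (SE 0.20; 0.09 without knockout replicate 3) and -0.37 (SE 0.20; -0.15 without wildtype replicate 3), the latter without overlap by 0.08. Probe set 1456575_at differed by 0.26 (SE 0.15; 0.14 without wildtype replicate 2). These read between 2.04 and 3.26 on all arrays. Probe sets whose names end in x_at hold probes that can match other transcripts, which touches 5 of the 8.

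**Figure D2:**
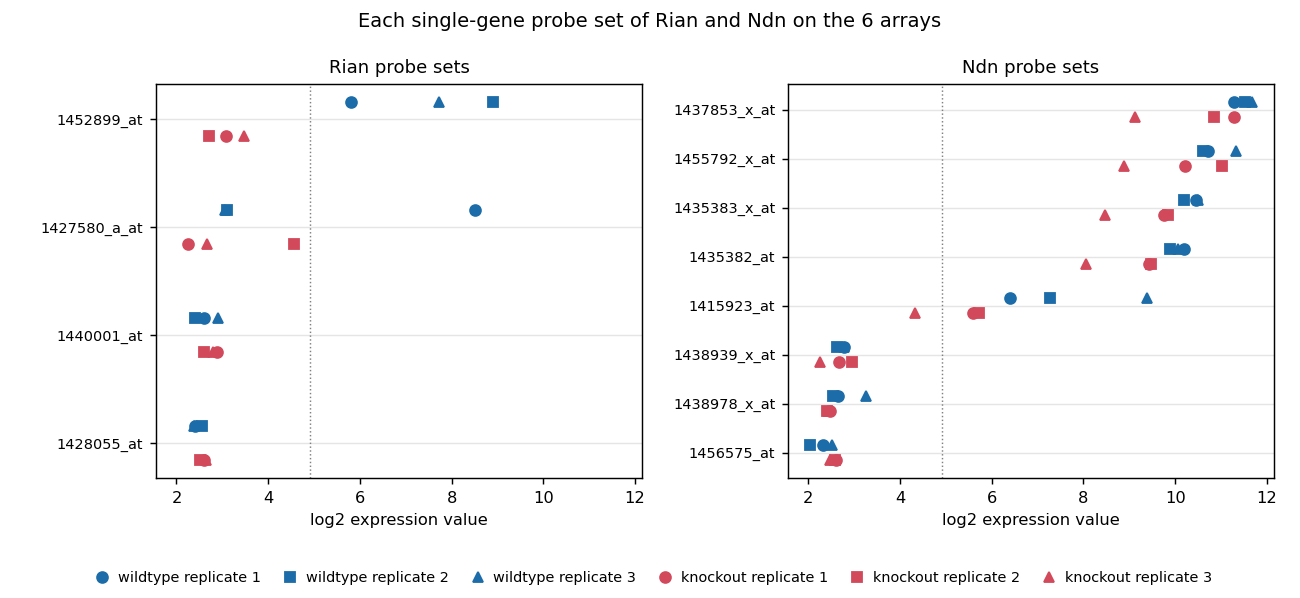
Log2 expression value (horizontal axis) of each of the 4 single-gene probe sets of Rian and the 8 of Ndn on the 3 wildtype (blue) and 3 knockout (red) arrays; the dotted line is the mean of the array medians. Rian separates in 1452899_at alone, and knockout replicate 3 (red triangle) is the lowest array in the 5 bright Ndn probe sets.

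Peg3, a zinc finger gene expressed from the paternal copy, was above the array median on at most 1 array in each of its 5 probe sets. Probe set 1433924_at read 7.31 in knockout replicate 1 and between 2.86 and 4.26 on the other 5 arrays. Its difference of 0.76 (SE 1.17) turned to -0.67 without that array. Probe set 1417356_at read 5.69 in wildtype replicate 2 and between 2.71 and 3.44 elsewhere, and its difference of -0.90 (SE 0.72) was -0.03 without that array and -1.41 without wildtype replicate 3. The other 3 stayed between 2.05 and 2.75, and the one of these without overlap, 1447732_x_at, had a gap of 0.01 and a difference of -0.08 (SE 0.10).

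Plagl1, a zinc finger transcription factor (ZAC1) that regulates other imprinted genes, had differences above 0 in its 3 probe sets, though only the brightest kept that sign in every setting tried. The brightest, 1438588_at, read 4.70, 4.37 and 4.96 in wildtype and 5.03, 5.70 and 5.53 in knockout. The knockout arrays were all higher, by a margin of 0.07, with a difference of 0.74 (SE 0.35, adjusted p = 0.906 in limma). Probe set 1426208_x_at read 8.83 in knockout replicate 1, 5.85 in wildtype replicate 2 and between 2.03 and 3.25 on the other 4 arrays; its difference of 0.92 (SE 1.85) was -1.15 without knockout replicate 1 and 2.25 without knockout replicate 3. Probe set 1450533_a_at read between 2.30 and 2.88 on all arrays, with a difference of 0.055 (SE 0.20) that turned to -0.004 under quantile normalization.

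**Figure D3:**
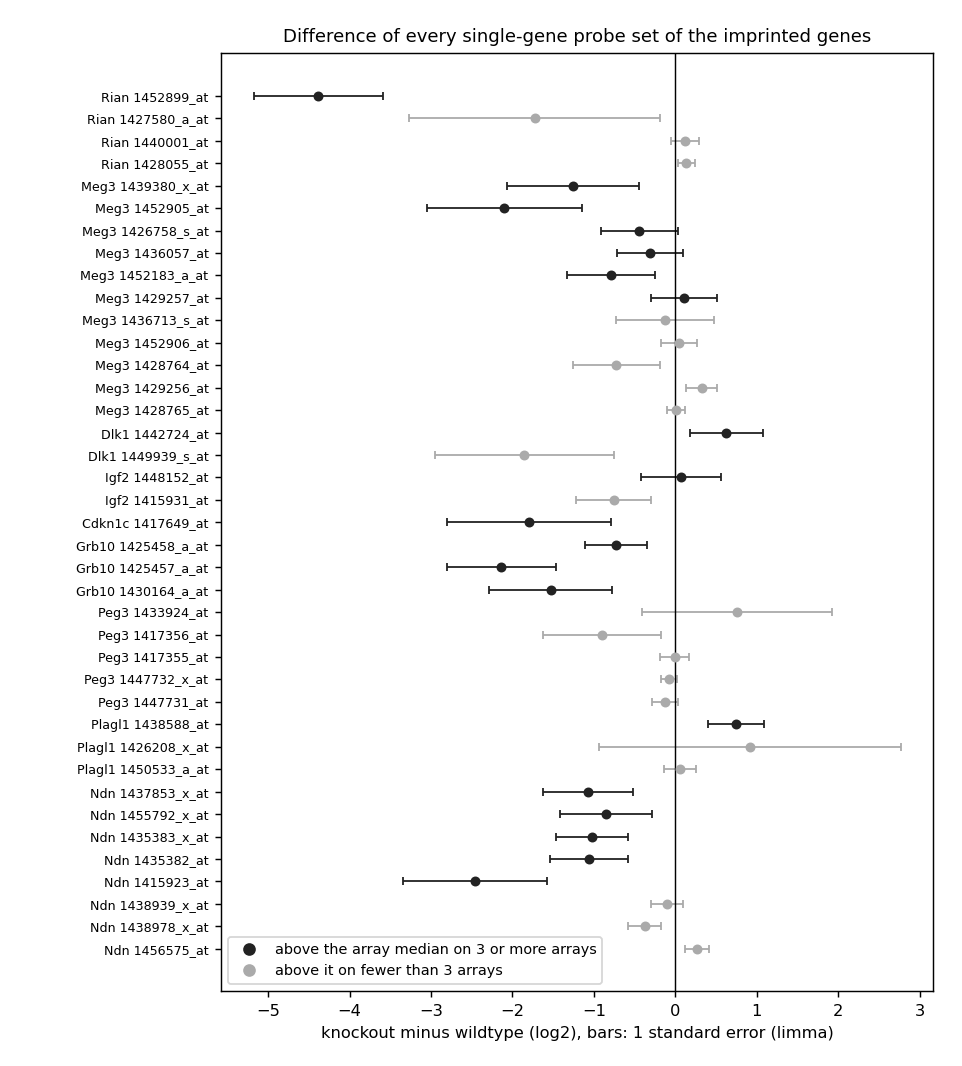
Knockout minus wildtype difference on the log2 scale (horizontal axis) of all 39 single-gene probe sets of the imprinted genes, with bars of 1 standard error from limma; black points were above the array median on 3 or more arrays and grey points on fewer. The lowest value is -4.39 in Rian 1452899_at, and the differences of Ndn, Grb10 and Cdkn1c lie between -2.46 and 0.26.

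The sequences before the starts of Rian, Grb10 and Ndn are shown because of their unadjusted p. In the limma fit over all probe sets, these members had a probe set with an unadjusted p under 0.05. Each line gives the 250 bases before a RefSeq start in GRCm38.p6, read 5′ to 3′ on the strand of the gene. Rian is at chr12:109603695-109603944 (plus strand), Ndn at chr7:62348027-62348276 (plus strand), and Grb10, with a pair of starts, at chr11:12037421-12037670 and chr11:12027972-12028221 (minus strand). Capitals mark matches to the motif AANNGAAA, known as the core bound by interferon regulatory factors, on either strand.
Rian: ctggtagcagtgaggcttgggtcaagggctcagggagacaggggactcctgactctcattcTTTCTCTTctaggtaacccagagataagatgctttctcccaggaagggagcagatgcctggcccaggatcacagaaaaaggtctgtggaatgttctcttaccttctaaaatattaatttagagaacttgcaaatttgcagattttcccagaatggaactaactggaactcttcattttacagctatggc
Ndn: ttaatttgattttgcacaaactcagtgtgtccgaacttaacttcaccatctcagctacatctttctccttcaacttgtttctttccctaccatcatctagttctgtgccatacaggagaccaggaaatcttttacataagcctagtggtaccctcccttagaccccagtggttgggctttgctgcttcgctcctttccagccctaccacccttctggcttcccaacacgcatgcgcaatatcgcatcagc
Grb10, first start: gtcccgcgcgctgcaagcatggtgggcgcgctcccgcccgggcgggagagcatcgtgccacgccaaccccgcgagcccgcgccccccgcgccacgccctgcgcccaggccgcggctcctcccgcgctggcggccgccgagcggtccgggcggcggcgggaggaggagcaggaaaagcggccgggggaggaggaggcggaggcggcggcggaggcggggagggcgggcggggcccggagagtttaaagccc
Grb10, second start: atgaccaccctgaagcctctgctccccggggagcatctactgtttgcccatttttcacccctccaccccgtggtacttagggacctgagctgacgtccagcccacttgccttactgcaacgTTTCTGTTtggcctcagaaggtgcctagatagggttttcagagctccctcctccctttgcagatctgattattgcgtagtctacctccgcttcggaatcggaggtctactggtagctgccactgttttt
The windows of Rian and of the second Grb10 start hold 1 match each. Over the 13 windows of the 8 members with an entry, 3 (23.1%) held a match, the third being the second start of Meg3, against 21.3% of all 32851 windows in the table. The motif TGCCGC, bound by the imprint-keeping protein ZFP57 when methylated, was found on either strand in 2 windows (15.4%), those of Plagl1 and the first start of Meg3, against 8.68% of all windows; it shares no match with the other motif here. The number of CpG pairs ran from 0 before Rian and 5 before Ndn to 40 before the first start of Grb10, and the median over all windows was 6. A match to these letters does not show that a protein binds there.

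The wider set of imprinted genes did not show a common direction. Of 52 listed, 44 were measured, with a median difference of 0.08, 18 below 0 and 26 above, and 0 passed in either direction. Over all 18193 genes the median was 0.07, with 7900 below 0 and 10293 above, and 0 passed. At an unadjusted p under 0.05 there were 0 of the 44, against 4.84% of all genes. Among those above the array median on at least 3 arrays, the ones with the smallest p were Osbpl5, an oxysterol-binding protein gene, at -1.75 (SE 0.83; -2.67 without wildtype replicate 1), Blcap at 0.67 (SE 0.36), Commd1, which codes for a protein of copper handling and endosomal sorting, at -0.96 (SE 0.51), and the noncoding RNA Kcnq1ot1 of the Cdkn1c domain at -0.97 (SE 0.74). Kcnq1ot1 read 8.99, 10.27 and 9.70 in wildtype and 7.52, 8.47 and 10.05 in knockout, was -0.39 without knockout replicate 1 and -1.66 without knockout replicate 3, and turned to 0.04 with the mean of its probe sets. Commd1 read 8.43 to 9.23 in wildtype and 7.50 to 8.31 in knockout, and its groups did not overlap. It was the 1 gene of the 44 lower without overlap, against 774 of all 18193 genes. Higher without overlap were 2, against 1214 of all genes: Nnat by 1.11 (SE 0.50) and Snrpn by 0.35 (SE 0.20). Nnat was above the array median on 1 array and Snrpn on 0, and the gaps were 0.055 and 0.005.

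The genes that act with IGF2 and GRB10 gave no shared direction either. Of 14 measured receptors, binding proteins and adaptors of the insulin-like growth factors, 4 differences were below 0 and 10 above, with a median of 0.10. Over all 18193 genes, 7900 were below 0 and 10293 above, with a median of 0.07. In the list 0 passed, as over all genes. At an unadjusted p under 0.05 in limma there were 0 of the 14, against 4.84% of all genes. Igfbp4, a binding protein of IGFs, differed by -0.66 (SE 0.42; -0.33 without knockout replicate 3), Igfbp7 by 0.54 (SE 0.52; 0.24 without that array), Igf2r, the imprinted scavenger receptor of IGF2, by 0.75 (SE 0.64) and Insr, the insulin receptor, by 0.39 (SE 0.54). Igf2r was 0.05 and Insr 0.20 with the mean of their probe sets. With 1 array left out, Igf2r ran from 0.21 (without knockout replicate 1) to 1.20 (without knockout replicate 2) and Insr from 0.06 (without wildtype replicate 1) to 0.66 (without wildtype replicate 2). Of 18 genes of the PI3K, AKT and mTOR pathway, which carries growth factor signals, 11 were below 0 and 7 above, with a median of -0.08. Again 0 passed, as over all genes. At an unadjusted p under 0.05 in limma there were 2 of the 18, Akt2 and Pdpk1, against 4.84% of all genes. The kinase gene Akt2 read 11.19, 11.62 and 11.20 in wildtype and 10.09, 9.53 and 5.59 in knockout, a difference of -2.93 (SE 1.14). It was -0.63 with the mean of its probe sets and -1.52 without knockout replicate 3. Pdpk1, a kinase that activates AKT, differed by -1.44 (SE 0.60; -0.61 with the mean of probe sets), Eif4ebp1, a translation repressor, by 0.78 (SE 0.42; 0.40 without wildtype replicate 3) and Foxo3, a factor of stem cell maintenance, by -0.54 (SE 0.34; -0.20 without knockout replicate 3).

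Regulators that set or keep imprints were balanced, with 9 of 19 differences below 0 and 10 above and a median of 0.01. Here too 0 passed, as over all genes. At an unadjusted p under 0.05 in limma there was 1 of the 19, Tet2, against 4.84% of all genes. The DNA demethylase gene Tet2 differed by -1.88 (SE 0.75; -0.38 with the mean of its probe sets). The chromatin genes Arid4b and Arid4a differed by -1.43 (SE 0.69; -0.91 without wildtype replicate 2) and -0.85 (SE 0.51; -0.51 without knockout replicate 3, -0.54 without wildtype replicate 3), and by -0.75 and -0.26 with the mean of their probe sets. Atrx, a chromatin remodeller, differed by 0.59 (SE 0.36; 0.36 without knockout replicate 1) and turned to -0.13 with the mean of its probe sets. Mean levels of the whole list ran from 8.52 to 8.67 in wildtype and from 8.26 to 8.49 in knockout.

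Cell type markers are set beside these values array by array. Over the 9 imprinted genes, the median distance from the wildtype mean was -0.20, -0.65 and -1.29 in knockout replicates 1 to 3. For the 12 measured neutrophil markers it was 1.91, 0.77 and 4.19 on those arrays, all 12 differences were above 0, and the mean level of the list ran from 6.47 to 7.54 in wildtype and from 8.34 to 11.04 in knockout. For the 9 stem cell markers it was 0.59, 0.28 and -1.27, with mean levels of 8.04 to 9.10 in wildtype and 7.30 to 9.04 in knockout. Knockout replicate 3 thus had the highest neutrophil level, the lowest stem cell marker level and the lowest values of Ndn. Knockout replicate 1 had a higher neutrophil distance than knockout replicate 2, 1.91 against 0.77, and imprinted genes nearer the wildtype mean, -0.20 against -0.65.

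Without knockout replicate 3 the difference of Rian 1452899_at was -4.58 and that of Grb10 1425457_a_at -2.14, against -4.39 and -2.14 with it. The 6 progenitor markers had median distances of 0.63, 0.94 and 0.53 in knockout replicates 1 to 3, with Flt3, the cytokine receptor of progenitors, at 6.93, 6.19 and 6.63 in wildtype and 7.99, 8.56 and 10.55 in knockout. The 13 stromal markers stand for cells that make much Igf2, Dlk1 and Meg3 and that the sort does not select. They had a median difference of -0.13, with 8 differences below 0 and 5 above. Over all 18193 genes, 7900 were below 0 and 10293 above. Mean levels of the stromal list were 4.92, 6.56 and 5.55 in wildtype and 4.88, 5.90 and 6.15 in knockout. Of the 13, 8 were above the array median on 3 or more arrays, among them Col1a1, Sparc, Mgp and Bgn on all 6, while Lum and Postn were above it on 0. Some markers were high on a few arrays only. Col1a2 read 9.33 in wildtype replicate 2 and 10.84 in knockout replicate 2, and Pdgfrb read 10.02 in knockout replicate 3. Col3a1, Dcn and Mgp were highest in wildtype replicate 2, at 6.84, 6.45 and 7.79. Bgn was the 1 stromal marker lower in knockout without overlap, against 774 of all 18193 genes, and 0 were higher, against 1214. It read 8.28, 8.52 and 7.95 in wildtype and 7.80, 7.33 and 6.67 in knockout. The 5 erythroid markers had a median difference of -1.20, the 7 endothelial ones -0.18, the 6 megakaryocyte ones 0.05 and the 7 lymphoid ones -0.10. The part of any of these cells in the values of Ndn and the other imprinted genes was not tested.

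**Figure D4:**
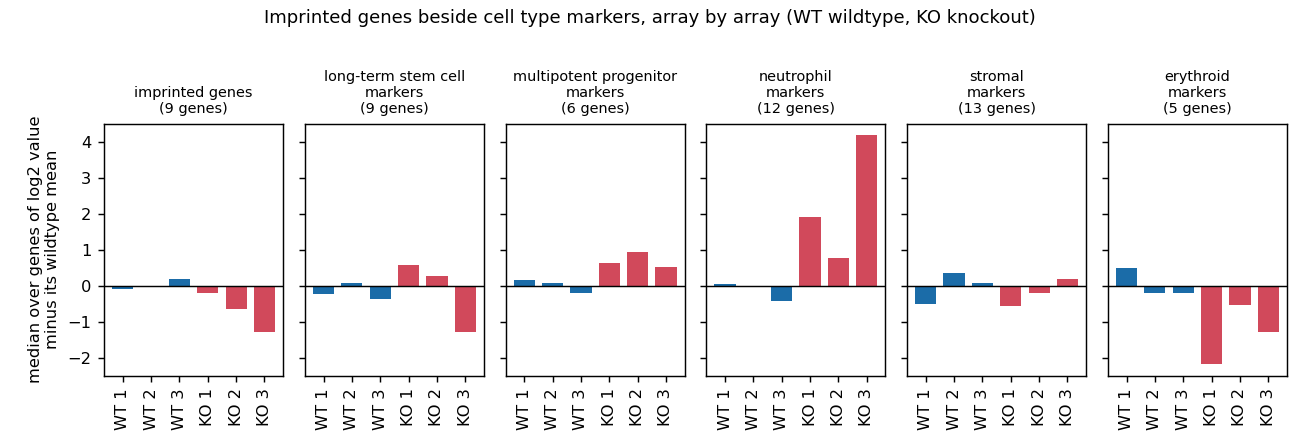
Median over genes of the log2 value minus the gene's wildtype mean (vertical axis) on each array, for the 9 measured imprinted genes and for 5 lists of cell type markers; blue bars are wildtype arrays and red bars knockout arrays. Knockout replicate 3 has the lowest value for imprinted genes, -1.29, and the highest for neutrophil markers, 4.19.

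The genes whose values over the 6 arrays were most like the brightest Rian probe set, among 8793 genes above the median level, were Bex4, Slc27a4, a fatty acid transporter, and Anxa9, with Pearson correlations of 0.986, 0.985 and 0.983. Bex4 read 7.95, 8.51 and 8.15 in wildtype and 7.03, 6.93 and 7.27 in knockout. For the brightest Ndn probe set they were Slc35a2, a transporter of nucleotide sugars, Calcrl, a receptor for calcitonin family peptides, and Washc3, at 0.997, 0.993 and 0.992. All 3 had their lowest value in knockout replicate 3, at 3.74, 6.34 and 4.02, where Ndn also had its lowest. The arrays share genotype and depth of amplification between genes, 6 points readily give high values among so many genes, and the correlations are given as a description only.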

How the data were processed

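RNA of sorted LT-HSC was amplified with a pico whole-transcriptome kit and hybridised to arrays, per the labels' protocols. What the authors deposited is 1 log2 expression value for each of 45037 probe sets and 6 arrays. Per the submitters' processing notes, RMA was used, with Partek and Affymetrix Expression Console; no version, setting or genome build is stated there. RMA compresses differences between dim probe sets, and the log2 scale was read from the values.

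Probe sets were named from the platform annotation: 34945 name 1 gene, 932 several and 9160 none; 34741 of the single-gene ones matched RefSeq by Entrez number. Groups came from the sample titles. The difference between knockout and wildtype was fitted with limma 3.58.1 under R 4.3.3 (lmFit, then eBayes with its trend option) over all probe sets, or over 18193 genes with the probe set of highest mean standing for each, with Benjamini-Hochberg adjustment and a threshold of 0.05. No filter on level was applied. The fit was run on data simulated with known differences and independent noise, which checks the code and not the calls made here. The members and lists were chosen with earlier results of these data known, and no list was tested as a set. From each list up to 4 genes were named, those of smallest unadjusted p among genes above the array median on 3 or more arrays, and likeness was ranked by Pearson correlation. Sequences are from RefSeq tables of GRCm38.p6. Alternatives changed the moderation, array weights, scaling, level filter, choice of probe set, replicate block and arrays used. Tables and figures were made with matplotlib 3.10.9, numpy 2.4.6, pandas 2.3.3 and Python 3.11.15.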

Additional observations from a re-analysis of the deposited data

How the results depend on the processing

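Under the 13 alternatives 0 member probe sets, and 0 genes of the other 5 lists, passed the threshold in limma, and the smallest adjusted p of a member was 0.574 over probe sets and 0.216 over genes; at an unadjusted p under 0.05 the main fit had 3 of the 39. The median over the 39 probe sets, -0.37, was -1.02 with only the 19 probe sets above the median level, -0.73 with 1 probe set a gene, and -0.67 to -0.22 when each array was left out in turn. The number lower in knockout without overlap was 9 to 15 when 1 array was left out, an alternative chosen after seeing the data; fewer arrays overlap less often by construction. The median over 9 genes ran from -0.90 to -0.42 over all alternatives. With 1 array left out, directions turned for 11 member probe sets, whose differences then ran from -2.64 to 0.084 (Rian 1427580_a_at), -0.18 to 0.25, -0.73 to 0.33, -0.095 to 0.14 and -0.029 to 0.051 (Meg3 1429257_at, 1436713_s_at, 1452906_at and 1428765_at), -0.18 to 0.41 (Igf2 1448152_at), -0.67 to 1.55 and -0.13 to 0.15 (Peg3 1433924_at and 1417355_at), -1.15 to 2.25 and -0.08 to 0.21 (Plagl1 1426208_x_at and 1450533_a_at) and -0.27 to 0.088 (Ndn 1438939_x_at). Of these, 3 also turned in other settings: Meg3 1452906_at at -0.007 and Plagl1 1450533_a_at at -0.004 under quantile normalization, and Meg3 1428765_at at -0.044 under it, -0.007 with centred arrays and -0.002 with array weights. Of the named genes of other lists, Kcnq1ot1 (0.044), Atrx (-0.13) and Cdkn1a (-0.15) turned with the mean of probe sets, and Cdkn1a ran from -0.22 to 0.55 with 1 array left out. The causes were not tested. Equal replicate numbers did not pair the arrays: their deviations from the group means correlated at -0.01, 0.00 and 0.00 across probe sets. With the replicate block the median over probe sets was -0.37, and the smallest adjusted p of a member was 0.903.

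With 3 arrays a group, a difference of -1.07 in the brightest Ndn probe set or of -1.79 in Cdkn1c lies within 2 standard errors of 0. Of the 39 probe sets, 20 read under the array median on 4 or more arrays, where the signal is low.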
